A study of Homo sapiens with 6 samples.

Results

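The genes examined here are those of the mitochondrial genome, chosen as every gene whose symbol begins with MT-, which gave 37 of the 60671 gene identifiers in the count files. They comprise 13 protein-coding genes, 2 rRNA genes and 22 tRNA genes. RNA was measured in 6 samples of EndoC-βH1 cells, 3 exposed to the solvent DMSO and 3 to 1 μM AZD7762, a small molecule that inhibits the checkpoint kinases CHEK1 and CHEK2. EndoC-βH1 is a human pancreatic β cell line, so all samples share 1 genetic background, given as WT. In all 6, cells were kept for 1 h in 0.5 mM glucose and then for 1 h in either 0.5 or 20 mM glucose, with DMSO or AZD7762 present during both steps, and which of the glucose levels applied to which library is not given. Libraries of polyadenylated RNA were made with either a stranded or an unstranded kit, and the kit used for each sample is also not given, so differences in glucose level or kit between groups cannot be told apart from the treatment where they coincide with it. The labels do not say whether the replicates were separate cultures, so p-values measure only the spread between these samples.

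Mitochondrial DNA is a small circle inside the organelle that encodes core subunits of the respiratory chain and the RNAs of the ribosome that translates them. It is transcribed by its own RNA polymerase from promoters on both strands into long precursors. Most mRNAs and rRNAs are released when the tRNAs that lie between them are cut out, and then receive short poly(A) tails. In β cells the ATP made by the respiratory chain couples glucose metabolism to the closure of potassium channels and the release of insulin. Because the RNAs begin as shared precursors, levels of the separate genes are not independent measurements of transcription.

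The compact layout of the genome bears on how its genes are counted, and the sequences that show it are given here from the GRCh37 assembly, 5′ to 3′, on the strand of the gene. The mitochondrial chromosome has 16569 bases, with 28 of the 37 genes on the plus strand and 9 on the minus strand. In 6 of the 13 protein-coding genes the annotated reading frame ends inside a codon, and the stop codon is completed by the poly(A) tail. The last 30 bases of these genes are shown because the tail that completes the codon follows them, with the bases of the incomplete codon in capitals. Their positions are chrM:4233-4262, chrM:5482-5511, chrM:9961-9990, chrM:10375-10404, chrM:12108-12137 and chrM:15858-15887, all on the plus strand.
MT-ND1: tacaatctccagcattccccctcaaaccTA
MT-ND2: ctatctccccttttatactaataatcttaT
MT-CO3: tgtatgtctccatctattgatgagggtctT
MT-ND3: gactacaaaaaggattagactgaaccgaaT
MT-ND4: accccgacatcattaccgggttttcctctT
MT-CYB: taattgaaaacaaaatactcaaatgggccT
MT-ATP8 and MT-ATP6 share 46 bases, MT-ND4L and MT-ND4 share 7, and MT-ATP6 and MT-CO3 share 1. How reads in shared bases were assigned is not stated, so levels of these genes are uncertain to that extent. The larger overlaps lie within chrM:8512-8587 and chrM:10745-10781, and the shared bases are in capitals.
MT-ATP8/MT-ATP6: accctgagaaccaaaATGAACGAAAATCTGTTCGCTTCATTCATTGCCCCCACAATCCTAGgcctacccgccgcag
MT-ND4L/MT-ND4: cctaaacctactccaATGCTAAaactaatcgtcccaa

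Totals were 20486391 to 29402440 counts per sample, of which 3 counts correspond to 0.102 to 0.146 CPM, the unit used for levels here, in which each count is divided by its library total on a fixed scale. The 6 libraries are distinct: every pair of replicates differed by at least 4.92 times the sampling noise expected for identical libraries (chi-square per gene). All 9 β cell markers listed passed the filter on low counts, with CHGA, a protein of secretory granules, at 3601 CPM and INS at 1260.1 CPM in DMSO, and 1 of the 9, the transcription factor MAFA, was called higher with AZD7762. Of 13 markers of other cell types, 6 passed the filter and 0 were called by edgeR. Their summed level was 263 to 290 CPM with DMSO and 315 to 340 CPM with AZD7762, mostly SST, the hormone of δ cells. The acinar genes PRSS1 and CELA3A and the endothelial gene CDH5 were at 0 in every sample. The acinar gene CPA1 was present, at 21.8 CPM with DMSO and 25.7 CPM with AZD7762 (edgeR adjusted p = 0.308). The endothelial gene PECAM1 had no matched identifier and is not among the 13. Replication-dependent histone mRNAs, which lack a poly(A) tail, summed to 487 to 608 CPM with overlapping groups. Of 12 other RNAs listed as not polyadenylated, 6 had a matched identifier, and these summed to 2 to 6 counts per sample. The values of these markers and RNAs stand beside the mitochondrial result below, and their part in it was not tested.

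Mitochondrially encoded genes held a larger share of all gene counts in each AZD7762 sample than in any DMSO sample. The share was 1.57%, 2.13% and 2.12% in DMSO replicates 1, 2 and 3, and 2.26%, 2.28% and 2.63% in AZD7762 replicates 1, 2 and 3. DMSO replicate 1 lay well below the other DMSO samples, and AZD7762 replicate 3 well above the other AZD7762 samples. The means were 1.94% ± 0.321 with DMSO and 2.39% ± 0.210 with AZD7762 (SD, n = 3), a difference of 0.450 percentage points or a ratio of 1.23. Without DMSO replicate 1 the DMSO mean was 2.13% and the ratio 1.12. The 95% Wilson intervals of these shares reached at most 0.00677 percentage points to either side, so counting error is small beside the spread between samples. Such intervals cover counting error only. In bulk samples, more mitochondrial RNA per cell and less nuclear RNA per cell cannot be told apart. Since the share is a sum over genes chosen with earlier results known, no p-value is given for it. DMSO replicate 1 was also the most deeply sequenced library, at 29402440 counts, and the part of depth in its low share was not tested.

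**Figure D1:**
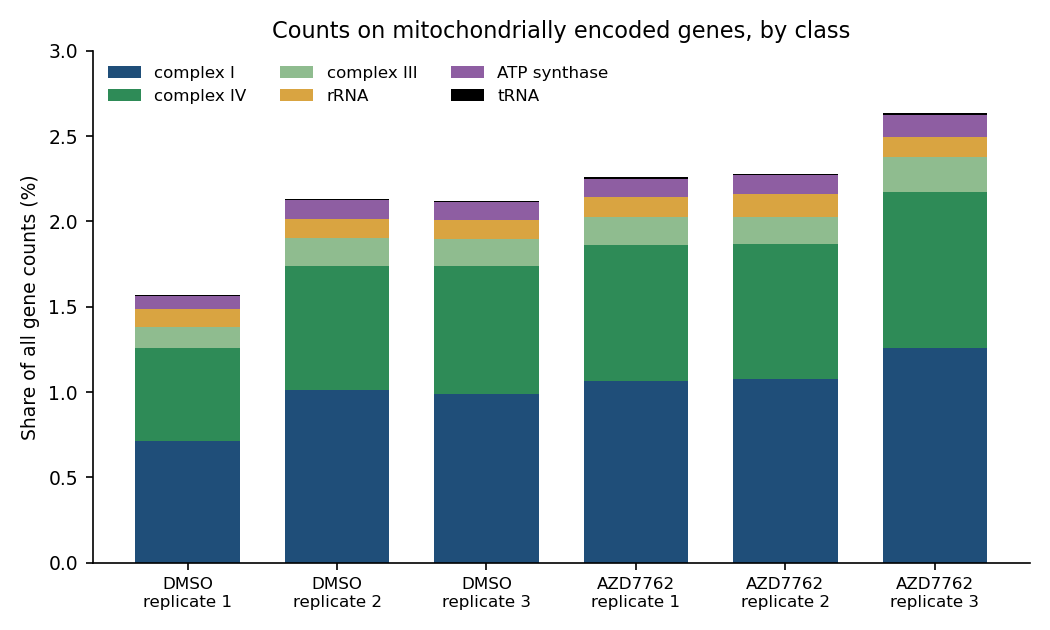
Stacked bars give the share of all gene counts (%) held by mitochondrially encoded genes in each of the 6 samples, split into the subunits of complex I, complex III, complex IV and ATP synthase, rRNA and tRNA. Total shares ranged from 1.57% in DMSO replicate 1 to 2.63% in AZD7762 replicate 3, and complexes I and IV made up most of each bar.

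In 3 of the 6 classes, complex I, complex IV and rRNA, the AZD7762 samples all lay above the DMSO samples, and DMSO replicate 1 was the lowest sample in every class but tRNA, where it was the highest. The 7 subunits of complex I, which takes electrons from NADH, held 0.715%, 1.01% and 0.990% of counts in the DMSO samples and 1.06%, 1.08% and 1.26% in the AZD7762 samples, a ratio of means of 1.25. The 3 subunits of complex IV, which passes electrons to oxygen, held 0.674% ± 0.112 and 0.833% ± 0.0714, a ratio of 1.24, again without overlap. The single mitochondrially encoded subunit of complex III, MT-CYB, held 0.148% ± 0.0227 and 0.176% ± 0.0231, and the 2 of ATP synthase held 0.0961% ± 0.0180 and 0.116% ± 0.0117. In both of these classes the groups overlapped. The 2 rRNAs of the mitochondrial ribosome held 0.1098% ± 0.00585 and 0.123% ± 0.0109 without overlap, at a ratio of 1.12. The 22 tRNAs together held 0.00784% ± 0.000529 and 0.00812% ± 0.000217, a ratio of 1.04 with overlapping groups.

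Levels per gene were compared after scaling the libraries with TMM factors, and are given as normalized CPM. All 15 rRNA and protein-coding genes and 7 of the 22 tRNA genes passed the filter on low counts, and the other 15 tRNA genes did not. Of these 22 tested genes, 1 was called at an adjusted p below 0.05 by edgeR's quasi-likelihood test, against 0.708% of the 17649 genes tested in the whole table of which 0.357% were called higher and 0.351% lower. At an unadjusted p below 0.05 the count was 13 of the 22, all higher, where the whole table had 9.68% in either direction, 4.43% higher and 5.25% lower. In 9 of the 22 the AZD7762 samples all lay above the DMSO samples, against 6.79% of all genes tested, and in 0 they all lay below (15% of all genes tested were separate in either direction). The 15 rRNA and protein-coding genes were higher in mean with AZD7762 without exception, with a median log2 fold change of 0.29, while the median of all genes tested was 0.00756 and that of 1546 nuclear genes of like abundance was 0.03, with 68.4% of those higher. Leaving out DMSO replicate 1 lowered the median of the 15 to 0.17 and the number of members at an unadjusted p below 0.05 to 4, and leaving out AZD7762 replicate 3 gave 0.20 and 5. The members share precursors and libraries, so these counts do not describe independent genes.

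**Figure D2:**
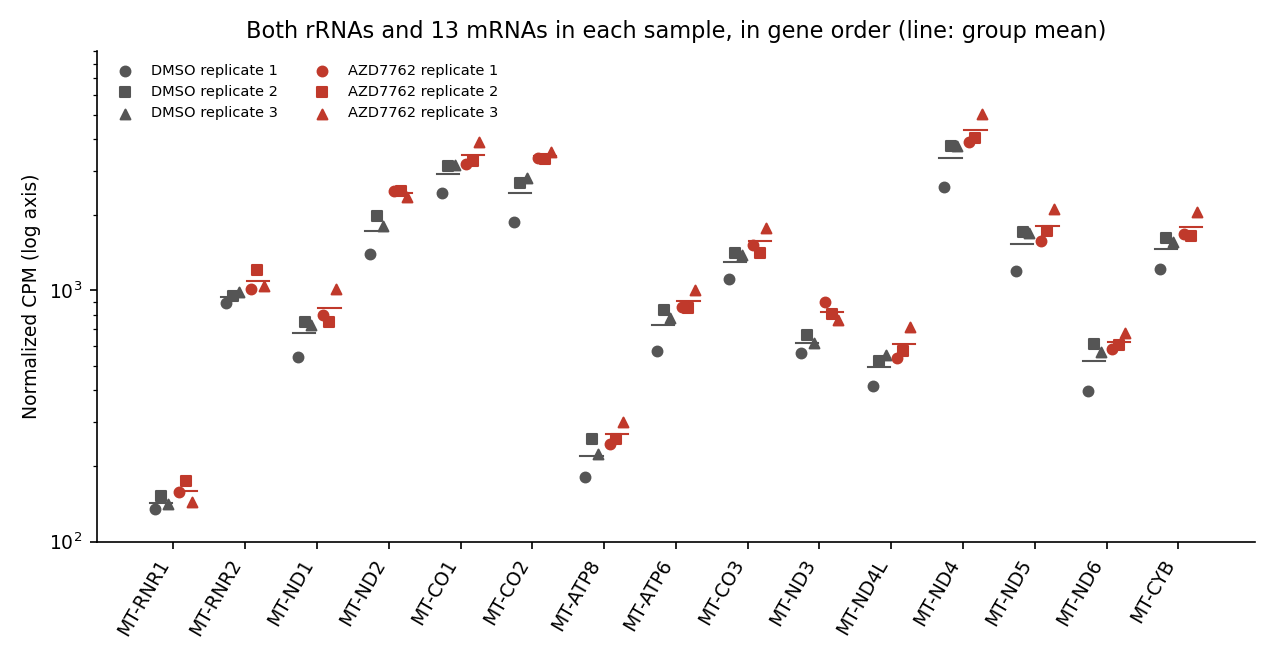
Points give normalized CPM (log axis) of the 15 rRNA and protein-coding genes in gene order, with 3 DMSO samples in grey, 3 AZD7762 samples in red and a line at each group mean. DMSO replicate 1 (grey circles) was the lowest of the 6 samples for all 15 genes, and AZD7762 replicate 3 (red triangles) the highest for 11.

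Among the 7 subunits of complex I, MT-ND3 rose with AZD7762 and the other 6 did not pass the threshold. MT-ND3 (chrM:10059-10404, plus strand), a small membrane subunit, measured 566, 667 and 619 CPM in the DMSO samples and 898, 809 and 759.9 CPM in the AZD7762 samples. All AZD7762 values lay above all DMSO values, and here AZD7762 replicate 3 was the lowest of its group. The log2 fold change was 0.41 (SE 0.0793), a 1.33-fold difference, with an adjusted p of 0.0317 by edgeR's quasi-likelihood test. The call was lost without DMSO replicate 1 (adjusted p = 0.150, edgeR), AZD7762 replicate 1 (0.274) or AZD7762 replicate 2 (0.127), and with libraries scaled by their totals alone (0.0544), while the log2 fold change stayed between 0.34 and 0.47 across these and the other settings run.

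MT-ND2 (chrM:4470-5511, plus strand), a membrane subunit of the proton-pumping arm, had the highest fold change of the 15 but missed the threshold. It measured 1397, 1984 and 1802 CPM with DMSO and 2494, 2480.3 and 2363 CPM with AZD7762, so that the groups were separate and the AZD7762 samples lay close together. The log2 fold change was 0.50 (SE 0.106, adjusted p = 0.0594, edgeR). MT-ND2 was called by DESeq2 (adjusted p = 0.000123) and limma-voom (0.0368), by edgeR without a filter (5.41e-12), and without DMSO replicate 2 (0.0213) or DMSO replicate 3 (0.0235). Without a filter, 14 members were called in all, where 330 of the 34742 genes in that setting were called. MT-ND2 was not called without DMSO replicate 1 (adjusted p = 0.0865, edgeR) or AZD7762 replicate 1 (0.402), 2 (0.215) or 3 (0.0838). Scaling by library totals alone also gave no call (adjusted p = 0.0897, edgeR). MT-ND4 (chrM:10760-12137), also of the proton-pumping arm, was the most abundant of the genes at 3373 ± 676 CPM with DMSO and 4335 ± 633 CPM with AZD7762 (SD, n = 3). Its log2 fold change was 0.36 with an adjusted p of 0.407 (edgeR), and the groups were separate only through a narrow gap, from 3773 CPM in DMSO replicate 2 to 3901 CPM in AZD7762 replicate 1. MT-ND1, MT-ND4L, MT-ND5 and MT-ND6 had log2 fold changes of 0.34, 0.30, 0.23 and 0.24, with overlapping groups in each. MT-ND6 (chrM:14149-14673) is the only protein-coding gene on the minus strand, and without a stated strand setting its reads cannot be told apart from plus-strand precursor RNA over the same bases.

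In complex IV, MT-CO2 differed most between the groups. MT-CO2 (chrM:7586-8269, plus strand) encodes the subunit that accepts electrons from cytochrome c, and measured 1881, 2675 and 2791 CPM with DMSO and 3366, 3325 and 3552 CPM with AZD7762. The groups were separate by a gap wider than the spread of the AZD7762 samples, and the log2 fold change was 0.48 (SE 0.120), with an adjusted p of 0.134 by edgeR. MT-CO2 was called by DESeq2 (adjusted p = 0.00209), by edgeR without a filter (4.61e-11), and without DMSO replicate 3 (0.0127), but not by limma-voom (0.0916). Without DMSO replicate 1 or 2 the call was not made (adjusted p = 0.166 and 0.192, edgeR). The same held without AZD7762 replicate 1 (0.597), 2 (0.272) or 3 (0.230). MT-CO1 (chrM:5904-7445), the catalytic subunit, measured 2445, 3135 and 3168 CPM with DMSO and 3185, 3284 and 3909 CPM with AZD7762. Its groups met almost edge to edge, and the log2 fold change of 0.25 did not pass the threshold (edgeR adjusted p = 0.482). MT-CO3 had 0.27 on the log2 scale (edgeR adjusted p = 0.403), from 1299 ± 167 CPM to 1568 ± 182 CPM (SD, n = 3). MT-CYB, the cytochrome b of complex III, had a log2 fold change of 0.29, from 1462 ± 218 CPM to 1787 ± 225 CPM (SD, n = 3), with groups that were just separate on this scale, and MT-ATP6 and MT-ATP8, which sit in the membrane part of ATP synthase, had 0.31 and 0.28. None of these 3 passed the threshold, with adjusted p-values of 0.403 to 0.424 in edgeR.

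The rRNAs differed least. MT-RNR2 (chrM:1671-3229), the large rRNA, measured 893, 953 and 984 CPM with DMSO and 1015, 1208 and 1046 CPM with AZD7762, without overlap, 0.21 higher on the log2 scale (edgeR adjusted p = 0.390). MT-RNR1 (chrM:648-1601), the small rRNA, measured 143 ± 8.24 CPM and 158 ± 14.9 CPM (SD, n = 3), 0.15 apart on the log2 scale (edgeR adjusted p = 0.565) and overlapping groups. Both reached their highest value in AZD7762 replicate 2, not in replicate 3.

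**Figure D3:**
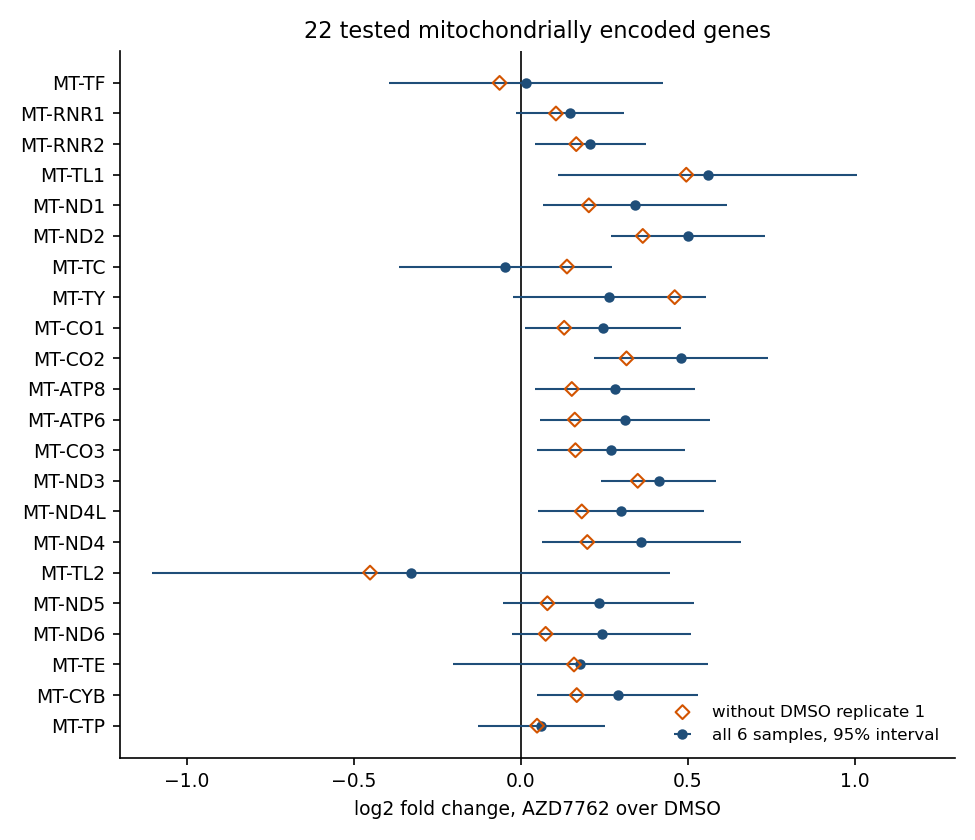
Filled points give the log2 fold change (AZD7762 over DMSO) of the 22 tested mitochondrially encoded genes in gene order with 95% intervals from edgeR, and open diamonds the value without DMSO replicate 1. The 15 rRNA and protein-coding genes lay between 0.15 and 0.50 with all 6 samples, and their diamonds were all nearer to 0.

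Replicates differed more for these genes than for others of their abundance. The SD between replicates of log2 CPM, pooled over both groups and computed with 0.5 CPM added, had a median of 0.208 over the 15 genes, with a range of 0.107 to 0.262. It was 0.112 over all genes tested and 0.0723 over the 1546 nuclear genes of like abundance. The median SD was 0.253 within DMSO, 0.0432 between DMSO replicates 2 and 3 alone, and 0.150 within AZD7762. Relative to the mean of the 6 samples, DMSO replicate 1 lay at a median of -0.41 on the log2 scale and AZD7762 replicate 3 at 0.31, while the other 4 lay between -0.04 and 0.09. The genes moved together from sample to sample. The exceptions at the top were MT-RNR1 and MT-RNR2, highest in AZD7762 replicate 2, and MT-ND2 and MT-ND3, highest in AZD7762 replicate 1.

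**Figure D4:**
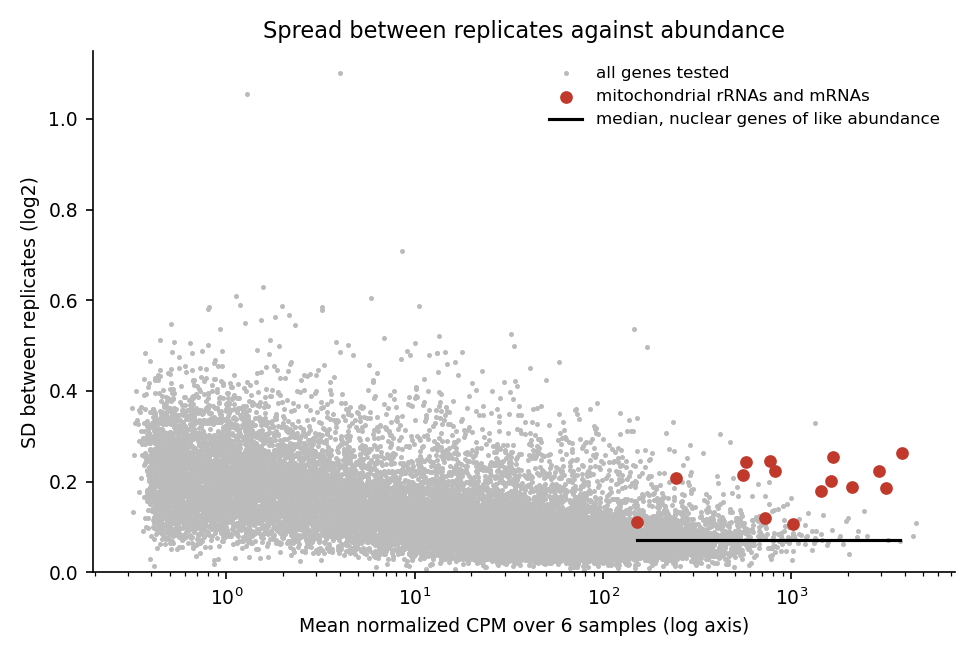
Each point is a gene tested, with its mean normalized CPM over 6 samples (log axis) against the SD between replicates of its log2 CPM, and the 15 mitochondrial rRNA and protein-coding genes are in red. All 15 lay above the median of nuclear genes of like abundance (black line, 0.0723).

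Within the mitochondrial counts the makeup by class hardly differed. Complex I subunits made up 46.5% ± 0.946 of them with DMSO and 47.4% ± 0.365 with AZD7762, complex IV subunits 34.7% ± 0.538 and 34.9% ± 0.363, and rRNAs 5.74% ± 0.735 and 5.18% ± 0.736 (SD, n = 3). The groups overlapped in all 6 classes. Of the 15 separate rRNA and protein-coding genes, only MT-CO1 had separate groups, with 15.7%, 14.8% and 15.2% of mitochondrial counts in DMSO and 13.9%, 14.1% and 14.7% in AZD7762. The exact two-sided permutation test over samples gave p = 0.1, the smallest that 3 against 3 samples allow, and 0.667 after adjustment over the 15 genes. The 9 minus-strand genes together held 3.10% ± 0.101 with DMSO and 2.87% ± 0.0667 with AZD7762, without overlap. Most of this was MT-ND6, at 2.72% ± 0.165 and 2.57% ± 0.0361, where the groups overlapped. Since MT-ND6 reads cannot be told apart from plus-strand precursor RNA, the sum does not measure minus-strand RNA alone.

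Ratios between neighbouring or related genes take out what all members share. Per length, MT-CO2 stood to MT-CO1 as 1.73, 1.92 and 1.99 in the DMSO samples and 2.38, 2.28 and 2.05 in the AZD7762 samples. The groups did not overlap, with an exact permutation p of 0.1, or 0.48 adjusted over the 6 ratios computed, and the pair was picked after its values were seen. The ratio of MT-ATP8 to MT-ATP6, which share 1 transcript, stayed between 0.939 and 1.03, and that of MT-ND4L to MT-ND4, also from 1 transcript, between 0.642 and 0.743. MT-RNR2 to MT-RNR1 ranged from 3.84 to 4.44, MT-ND6 to MT-ND5 from 1.11 to 1.28 and MT-ND2 to MT-ND1 from 2.13 to 3.05. In these 5 ratios the groups overlapped.

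Levels per length followed the same order in both groups at the ends of the scale. MT-CO2 was highest, at 3580.2 CPM per kb with DMSO and 4992 with AZD7762, followed by MT-ND4 at 2448 and 3146. MT-RNR1 was lowest of the 15, at 149.98 and 166, below MT-RNR2 at 605 and 699 and MT-ND1 at 706 and 894, which was the lowest mRNA. The libraries were selected for poly(A), so for the rRNAs, whose tails are short, low abundance and poor capture cannot be told apart. Between the extremes, MT-ND3, MT-ND4L, MT-ND2 and MT-CO3 lay within 1657 to 1784 CPM per kb in DMSO, closer to each other than the spread between replicates.

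**Figure D5:**
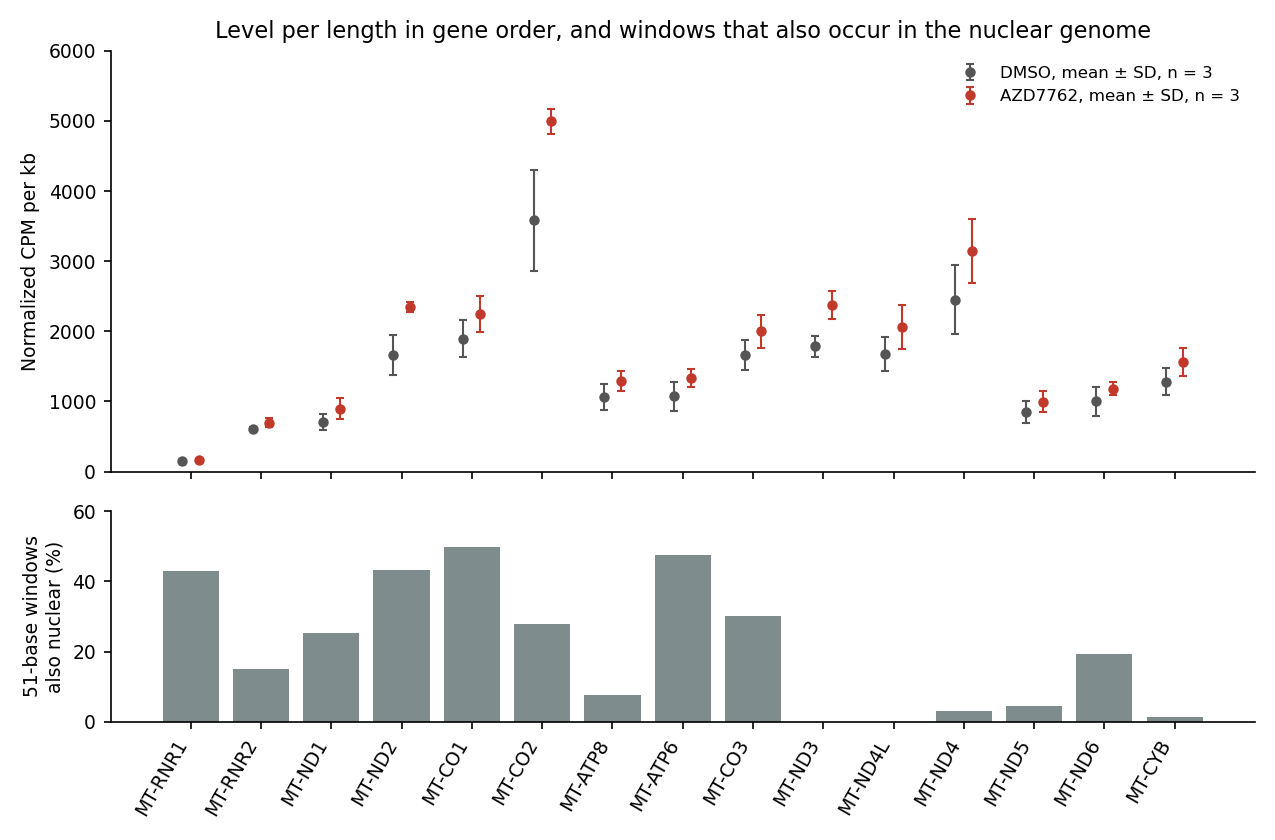
The upper panel gives normalized CPM per kb of the 15 rRNA and protein-coding genes in gene order (mean ± SD, n = 3 per group), and the lower panel the percentage of 51-base windows of each gene that also occur exactly in the nuclear genome. MT-CO2 was highest at 3580.2 and 4992 CPM per kb, while the share of windows ran from 0 in MT-ND3 and MT-ND4L to 49.9% in MT-CO1.

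Part of the mitochondrial genome also exists as copies in nuclear DNA, so reads from it can align to both places. Of the 16519 windows of 51 bases, the read length, 3861 (23.4%) occurred exactly in the nuclear chromosomes of GRCh37 on either strand. One stretch of chromosome 1, from 564464 to 570304, matched chrM from 3914 to 9755 and held 72.1% of those windows. By gene the percentage was 49.9% in MT-CO1, 47.5% in MT-ATP6, 43.2% in MT-ND2 and 42.9% in MT-RNR1, but 0 in MT-ND3 and MT-ND4L and 3.16% in MT-ND4. MT-ND3 therefore has no window of this length shared with the nuclear genome, whereas the level of MT-CO1 may depend on how reads with several matches were handled, which is not stated. The same limit applies to other genes with shared windows, among them MT-RNR1, MT-ND1 (25.2%) and MT-CO2 (27.9%). The order of levels per length may therefore also depend on it.

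Annotated nuclear copies carried counts of the same pattern. The 408 listed copies held 0.0716%, 0.0969% and 0.0943% of all counts in the DMSO samples and 0.101%, 0.104% and 0.117% in the AZD7762 samples, a ratio of 1.23, with DMSO replicate 1 lowest and AZD7762 replicate 3 highest. Among the 6 with a mean above 100 counts, 4 overlap the chromosome 1 stretch: MTCO1P12, at 431 ± 65.3 and 540.5 ± 33.2 CPM (SD, n = 3), had a log2 fold change of 0.33, and MTND1P23, MTND2P28 and MTATP6P1 had 0.39, 0.39 and 0.30. MTND4P12 on chromosome 5 had 0.51 and MTCO1P40 on chromosome 17 had -0.11. None of the 6 passed the threshold in edgeR, with adjusted p-values of 0.124 to 0.798. Whether these reads came from the copies or from mitochondrial RNA was not tested.

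Few counts fell on the tRNA genes, whose mature products carry no poly(A) tail. They summed to 11638 counts over the 6 samples, and MT-TD had 0 in every sample. Of the 15 below the filter, none had more than 17 counts in any sample. MT-TL1, MT-TC, MT-TY and MT-TP held 91.0% of all tRNA counts. Without a stated strand setting, reads of the minus-strand genes MT-TC, MT-TY and MT-TP cannot be told apart from plus-strand precursor RNA. The genes of all these tRNAs are shown on their own strand because they hold most of the tRNA counts, each with a mean of at least 100 counts per sample, at chrM:3230-3304 (plus), chrM:5761-5826, chrM:5826-5891 and chrM:15956-16023 (minus).
MT-TL1: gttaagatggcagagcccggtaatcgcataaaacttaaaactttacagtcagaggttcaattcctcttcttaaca
MT-TC: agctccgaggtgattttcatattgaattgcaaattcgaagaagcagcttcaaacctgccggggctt
MT-TY: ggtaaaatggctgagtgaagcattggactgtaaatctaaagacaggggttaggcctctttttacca
MT-TP: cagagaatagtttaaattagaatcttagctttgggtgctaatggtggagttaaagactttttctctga
MT-TP, the tRNA for proline, measured 36.9, 41.2 and 33.9 CPM with DMSO and 38.6, 42.7 and 35.8 CPM with AZD7762, with overlapping groups, 0.06 apart on the log2 scale (edgeR adjusted p = 0.871). MT-TC, for cysteine, and MT-TY, for tyrosine, share 1 base, and had log2 fold changes of -0.05 and 0.27. In both of them DMSO replicate 1 was the highest DMSO sample, at 23.8 and 12.4 CPM, unlike in the rRNAs and mRNAs. MT-TL1, a leucine tRNA that directly follows MT-RNR2, measured 3.73 ± 0.699 CPM and 5.54 ± 1.72 CPM (SD, n = 3), 0.56 apart on the log2 scale (SE 0.206, edgeR adjusted p = 0.390) and overlapping groups. The other 3 tested tRNA genes had log2 fold changes between -0.33 and 0.18. Over the 7 tested, 0 were called and the median was 0.06.

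Nuclear genes that express and maintain mitochondrial DNA were described beside the members. Of 47 listed genes, 46 were tested and 0 were called by edgeR's quasi-likelihood test, as also by DESeq2 and limma-voom. At an unadjusted p below 0.05 there were 3, against 9.68% of all genes tested, and DESeq2 gave 1 and limma-voom 3. In direction 20 were higher and 26 lower, with a median log2 fold change of -0.01 and a range of -0.36 to 0.23. The polymerase of mitochondrial transcription, POLRMT, had a log2 fold change of 0.05. TFAM, which packages mitochondrial DNA and starts its transcription, measured 104 ± 3.30 CPM with DMSO and 104 ± 6.54 CPM with AZD7762 (SD, n = 3). TFB2M, which opens the promoter, was lower in each AZD7762 sample than in any DMSO sample, at 11.98 ± 0.742 and 10.5 ± 0.233 CPM, but did not pass the threshold (log2 fold change -0.19, adjusted p = 0.548, edgeR). Elsewhere in the list the groups were separate in TFB1M, lower with AZD7762, and in MTERF3, PRORP, MGME1 and NRF1, higher. Of all genes tested, 15% were separate in either direction.

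Of the 21 genes that process, keep or destroy mitochondrial RNA, 8 were higher and 13 lower in mean, and 0 were called by edgeR. PRORP, a nuclease that cuts tRNAs from the precursor, had the highest log2 fold change of the list at 0.23. HSD17B10, which works with it, had 0.19 (unadjusted p = 0.0241, edgeR adjusted p = 0.422) and FASTKD1, which binds mitochondrial RNA, -0.17 (unadjusted p = 0.0473, edgeR adjusted p = 0.505), and these 3 were named after their values were seen. LRPPRC and SLIRP, which bind and stabilize the mRNAs, had log2 fold changes of -0.04 and 0.12, and PNPT1 and SUPV3L1, which degrade mitochondrial RNA, -0.09 and -0.02. Of the replication genes, the polymerase POLG had 0.05, the helicase TWNK -0.00919 and the single-strand binding protein SSBP1 0.06. NRF1, a nuclear regulator of respiratory genes, was higher in every AZD7762 sample, at 27.2 ± 1.61 and 30.8 ± 1.27 CPM, with a log2 fold change of 0.18 and an adjusted p of 0.443 (edgeR). PPARGC1A, a coactivator of mitochondrial biogenesis, did not pass the filter, with at most 7 counts in a sample.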

How the data were processed

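RNA-seq was analysed for 6 samples of EndoC-βH1 cells, 3 DMSO and 3 AZD7762, grouped by the treatment in their labels. The authors checked reads with FastQC 0.10.1, trimmed them with cutadapt 1.18, aligned them to GRCh37 and used HTSeq-count to obtain counts per gene, which they deposited unscaled. The aligner, strand setting and annotation release are not given in the sources used here. Positions, lengths and symbols came from a GRCh37 annotation that may differ from the one used for counting, and 58646 identifiers were matched.

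In edgeR 4.0.16 (R 4.3.3), genes with low counts were removed with filterByExpr, which left 17649, libraries were scaled with TMM factors of 0.983 to 1.02, and AZD7762 was compared with DMSO by the quasi-likelihood test, two-sided and without further covariates, with Benjamini-Hochberg adjustment over all genes tested and a threshold of 0.05. The script was tested on simulated data. Alternatives were other scaling, other filters, DESeq2 1.42.0, limma-voom (limma 3.58.1), a replicate block and leaving out each sample. Single shares and ratios were compared by exact permutation over samples. The members and lists were chosen with earlier results of these data known. The naming rule took all rRNA and protein-coding members, tRNA genes with a mean of at least 100 counts, nuclear copies above 100, and 12 genes of the nuclear list plus any called. Beyond the rule, MT-TD was named for its count of 0, and MT-TF and MT-TE for signs that reversed. Some genes of the nuclear list were also named only after their values were seen.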

Additional observations from a re-analysis of the deposited data

How the results depend on the processing

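All 15 rRNA and protein-coding genes stayed higher with AZD7762 in all 15 settings run, with a median log2 fold change of 0.17 to 0.36, while the number of members called moved. It was 1 in the report and also with DESeq2 size factors, after mitochondrial genes were taken out of the scaling and under a minimum of 10 counts per sample. Those settings called 116 to 128 genes in the whole table. With library totals and no scaling factor 0 members were called, of 149 genes, and without a filter on low counts 14, of 330. The DESeq2 Wald test called 3 (MT-ND2, MT-CO2 and MT-ND3), of 174 genes, and limma-voom 2 (MT-ND2 and MT-ND3), of 131. When 1 sample was left out, 0 to 3 members were called, of 77 to 168 genes. The libraries whose removal gave 0 were DMSO replicate 1 and AZD7762 replicates 1 and 2. The cause was not tested. Signs also reversed where the difference was close to 0: the log2 fold change of MT-TF was -0.0188 without a scaling factor, and on leaving out 1 sample it ran from -0.0631 to 0.117, that of MT-TC from -0.20 to 0.14, MT-TE from -0.00291 to 0.33, MT-TP from -0.0119 to 0.133, TFAM from -0.0537 to 0.0442, POLRMT from -0.0707 to 0.232, SUPV3L1 from -0.0641 to 0.00115 and TWNK from -0.0466 to 0.0255. The number of nuclear genes of mitochondrial DNA expression called stayed at 0, and shares and composition moved by less than the spread between replicates. Of the 22 tRNA genes, 15 had at most 17 counts in any sample and did not pass the filter on low counts.

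With the replicate block, 12 members and 378 genes in all were called, against 1 and 125 without it. The labels do not say that equal numbers mark a shared culture. Deviations of same-numbered samples from their group means correlated at 0.0533, 0.124 and 0.210 across genes. Samples of unequal number correlated at -0.253 to 0.175, with DMSO replicate 1 closest to AZD7762 replicate 2 (0.175). Correlations this weak cannot decide whether equal numbers mark paired samples, so the block is given only as an alternative.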
